A study of Homo sapiens with 15 samples.

Results

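A set of 10 genes of bone morphogenetic protein (BMP) signalling were followed through the cardiac differentiation of H1 human embryonic stem cells. The members were the 5 ligand genes BMP2, BMP4, BMP5, BMP7 and BMP10, the 3 targets ID1, ID2 and ID3, and the 2 inhibitory targets SMAD6 and BAMBI. They were found by matching Ensembl identifiers to GENCODE symbols, and all 10 were among the 48777 genes listed. H1 is an established, widely used line, so every library came from a single genotype. Bulk RNA was sequenced in 15 libraries, 3 on each of days 0, 4, 9, 11 and 20, and the submitters described the 3 of a day as biological replicates.

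By the labels, all 15 libraries came from wells coated with the laminins LN-521 and LN-221, although the sample sheet deposited with the counts listed L521 alone for the 3 libraries of day 0. Day 0 cells were undifferentiated and grew in NutriStem medium. By the treatment protocol, cells were confluent on day 4 and then received CHIR99021, a GSK3 inhibitor that activates WNT signalling, in RPMI with B27 lacking insulin. IWP2, an inhibitor of WNT secretion, followed from day 7 to day 9, and the described protocol named no added BMP. Day 9 and day 11 cells had therefore passed both agents, and day 20 cells had been kept in RPMI with B27. The growth protocol placed CHIR99021 and IWP2 on earlier days than the treatment protocol did, and the paper's methods listed a bulk harvest on day 7 where the labels gave day 9. Libraries are named here by the plate or replicate number of their labels, and 1 library of day 9 had no number. Day 20 libraries 2 and 2_3 both carry plate number 2 in their titles. They may not be independent, although each was counted as a replicate.

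BMPs are secreted proteins of the TGF-beta family that bind pairs of type I and type II receptor kinases, which phosphorylate SMAD1, SMAD5 and SMAD9. These SMADs join SMAD4, enter the nucleus and switch on targets such as the ID genes, whose proteins bind bHLH transcription factors and keep them off DNA. SMAD6 and BAMBI are targets that feed back on the pathway, SMAD6 inside the cell and BAMBI as a pseudoreceptor at the membrane. In the embryo BMP signals help to specify mesoderm and cardiac progenitors and later shape the atrioventricular canal and the trabeculae.

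Counts per library ranged from 11990302 to 33469703 with a median of 22867831. The 6 pluripotency markers summed to between 4624 and 6651 TPM (a level scaled for gene length and depth) on day 0 and to between 66.6 and 108 TPM on day 20, and all 6 stood at 1 TPM or more on day 0. The 6 cardiac muscle markers summed to between 10.5 and 15.1 TPM on day 0, 223 to 1326 TPM on day 9, 3849 to 20860 TPM on day 11 and 5085 to 21844 TPM on day 20. Mesenchymal and fibroblast markers reached 21724 TPM and endodermal markers such as AFP 20236 TPM on day 20, beside the cardiac markers. In bulk libraries, fewer cells of a type and less RNA per cell cannot be told apart. Library 2_3 of day 20 stood apart, with an RNA integrity number of 6.1 against 8.8 to 10 elsewhere and counts in 48230 genes. All 174 genes chosen as silent before day 20 had counts there, at a median of 11.0 reads per kilobase, a rate equal to between 0.459% (BMP5) and 11.8% (BMP4) of the counts of a member in that library. A short gene of about 57.0 bases held 20.0% of all TPM in day 0 replicate 3 and 17.0% in day 9 plate 2, which lowered the TPM of every other gene in those libraries. Fold changes and tests were therefore taken from the counts, by edgeR's quasi-likelihood test with TMM normalization and Benjamini-Hochberg adjustment over all genes tested.

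From day 4 to day 9 all 10 members changed, 9 upward and BMP7 downward. In no other step between consecutive days did a member pass an adjusted p of 0.05. Over the whole course 10 of 10 members differed among the 5 days at that threshold, where 50.4% of all genes tested did. The adjusted p of that test over 15 libraries ran from 7.42e-09 for BMP5 to 0.0281 for ID1. The call for ID1 was lost with no filter on low counts (adjusted p = 0.0601), with the sequencing lane as a block (0.0537), and on leaving out day 9 plate 2 (0.0560), the unnumbered day 9 library (0.0512), day 11 plate 2 (0.0539) or day 20 plate 6_1 (0.0710).

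**Figure D1:**
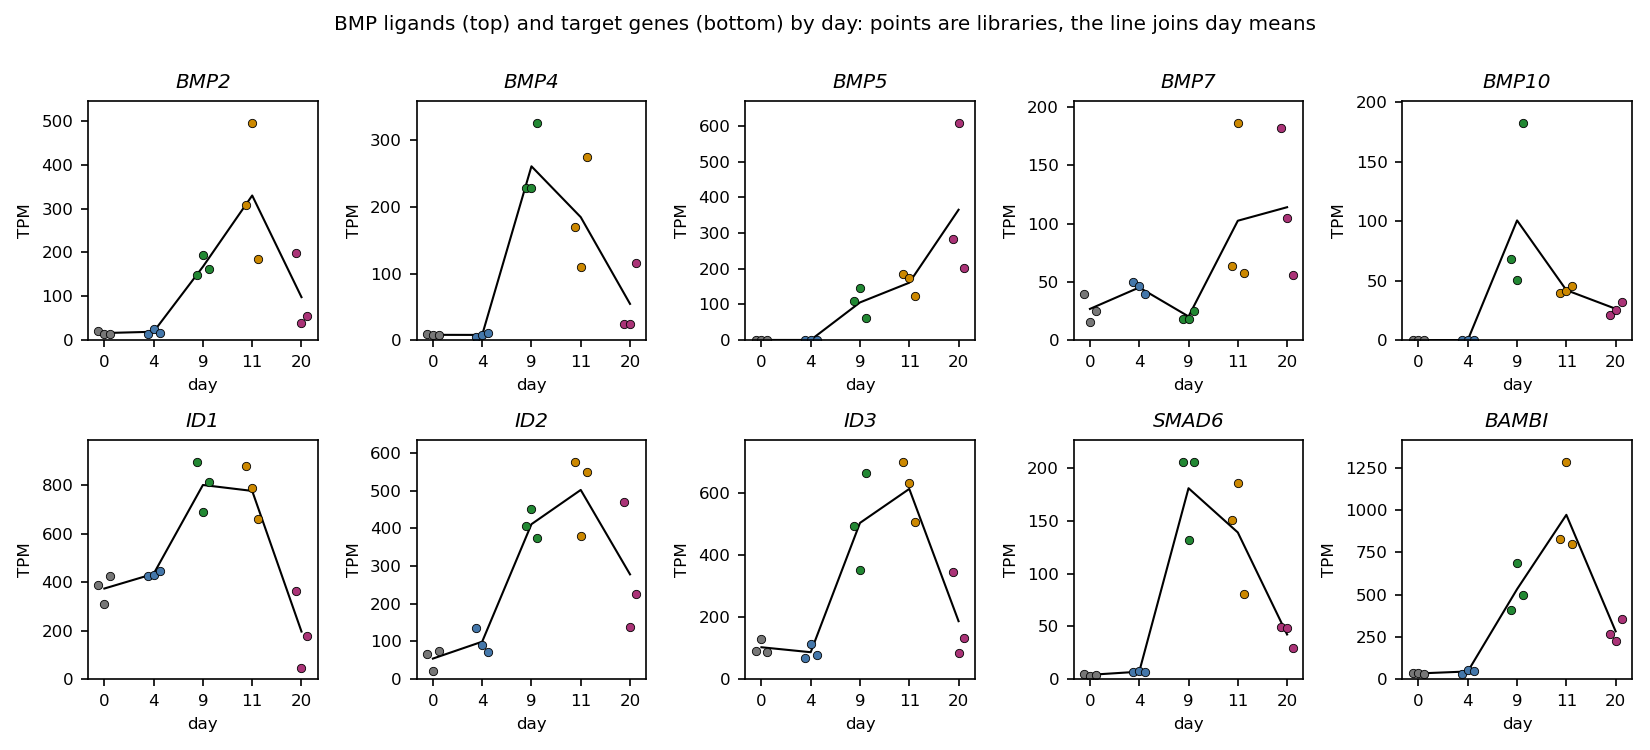
Level of each member in TPM (vertical axes, linear, starting at 0 and scaled to each gene) on days 0, 4, 9, 11 and 20 (horizontal axis, days evenly spaced), with 1 point for each of the 3 libraries of a day and a line through the day means. BMP2 and BAMBI had their highest mean on day 11, at 330 and 973 TPM, BMP4, BMP10, ID1 and SMAD6 on day 9, and BMP5 and BMP7 on day 20.

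BMP2 (ENSG00000125845; GRCh38 chr20:6767686-6780246, plus strand) encodes a ligand that signals from the myocardium of the atrioventricular canal. It stood at 20.7, 13.0 and 14.5 TPM in replicates 1, 2 and 3 of day 0 and at 14.96, 26.1 and 15.9 TPM in plates 1, 2 and 5 of day 4. It reached 147, 194 and 161 TPM in plates 2 and 6_1 and the unnumbered library of day 9, and 308, 496 and 186 TPM in plates 2, 5 and 6 of day 11. Plates 2, 2_3 and 6_1 of day 20 held 198, 39.2 and 56.1 TPM. Days 0 and 4 overlapped, day 9 lay wholly above day 4, and plate 5 of day 11 was the highest library. The rise from day 4 to day 9 was 8.90-fold (log2 fold change 3.15, SE 0.22, adjusted p = 2.38e-05, edgeR, n = 3 and 3).

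BMP4 (ENSG00000125378; chr14:53949736-53958761, minus strand) encodes a ligand needed for mesoderm formation in the mouse embryo. Its level was 8.42, 7.14 and 8.11 TPM on day 0 and 5.02, 8.06 and 10.2 TPM on day 4, in the same order of libraries. It was 228, 229 and 327 TPM on day 9 and 169, 110 and 275 TPM on day 11. On day 20 it was 23.7 and 23.6 TPM in plates 2 and 2_3, and 116 TPM in plate 6_1. Days 9 and 11 overlapped, and plate 6_1 alone carried day 20 into the range of day 11. Between day 4 and day 9 BMP4 rose 34.5-fold (log2 fold change 5.11, SE 0.31, adjusted p = 1.55e-05, edgeR). Exons of BMP4 overlap those of an unlisted gene on the opposite strand, and whether counting used strand is not given in the sources used here.

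BMP5 (ENSG00000112175; chr6:55753653-55875590, minus strand) encodes a ligand of the same subgroup as BMP7. It was near 0 early, with 0.693, 0.304 and 0.130 TPM on day 0 and 0.367, 0.255 and 0.451 TPM on day 4. Day 9 gave 110.4, 145 and 61.3 TPM and day 11 gave 185, 173 and 124 TPM. The day 20 libraries, plates 2, 2_3 and 6_1, held 284, 609 and 202 TPM. Every library of day 20 lay above every library of day 11, and plate 2_3 was the highest of all 15. BMP5 was too low for a test between days 0 and 4. The ratio of pooled CPM (counts scaled to library size) of day 9 to day 4 was 272, with a 95% exact interval of 189 to 407 for counting error alone, from 29 counts on day 4 and 7070 on day 9 (adjusted p = 6.77e-06, edgeR).

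BMP7 (ENSG00000101144; chr20:57168753-57266641, minus strand) encodes a ligand that pairs with BMP2 or BMP4 in heterodimers. It was the most abundant of the 5 ligands in each library of days 0 and 4, at 39.7, 15.9 and 24.7 TPM and then 49.5, 46.5 and 39.5 TPM. On day 9 it was 18.1, 17.7 and 25.0 TPM, wholly below day 4. On day 11 it was 63.4, 187 and 57.4 TPM, wholly above day 9, and on day 20 it was 182, 104 and 55.9 TPM. Days 11 and 20 overlapped, and plate 5 of day 11 and plate 2 of day 20 held the highest levels. BMP7 fell from day 4 to day 9 with a log2 fold change of -1.13 (SE 0.18, adjusted p = 0.00113, edgeR), a call that was lost when all 15 libraries shared one estimate of the spread (adjusted p = 0.0841).

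BMP10 (ENSG00000163217; chr2:68860909-68871397, minus strand) encodes a ligand made by heart muscle and required for trabecular growth in the mouse. It had 0 counts in the 3 libraries of day 0, which allows up to between 0.0896 and 0.250 CPM per library (3 counts, counting error only), and 1 count in the 3 of day 4. Its level was 68.4, 50.9 and 183 TPM on day 9, with the unnumbered library highest. It was 39.5, 41.2 and 45.4 TPM on day 11 and 21.1, 25.4 and 32.5 TPM on day 20. Day 9 lay wholly above day 11, and day 11 wholly above day 20. From 1 count on day 4 and 3117 on day 9, the ratio of pooled CPM was 3478 with a 95% interval of 624 to 137423 (adjusted p = 9.73e-05, edgeR).

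The 5 ligands summed to 51.1 ± 16.9 TPM on day 0, 72.3 ± 7.72 on day 4, 655 ± 93.8 on day 9, 820 ± 167 on day 11 and 658 ± 175 on day 20 (SD, n = 3 each). The sums of days 9, 11 and 20 therefore differed by less than the spread of day 20 while the makeup moved between them. BMP7 made up 51.0% ± 6.81 of the sum on day 0 and 62.7% ± 7.18 on day 4, and 3.09% ± 0.267 on day 9. BMP4 held the largest share on day 9, at 39.7% ± 3.58. BMP2 held the largest mean share on day 11, at 38.8% ± 11.2, although BMP4 was the largest in plate 6 with 40.0%. BMP5 was the largest in each library of day 20, from 40.1% to 76.0%, with the top share in plate 2_3. These shares are of RNA only and say nothing of secreted protein.

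**Figure D2:**
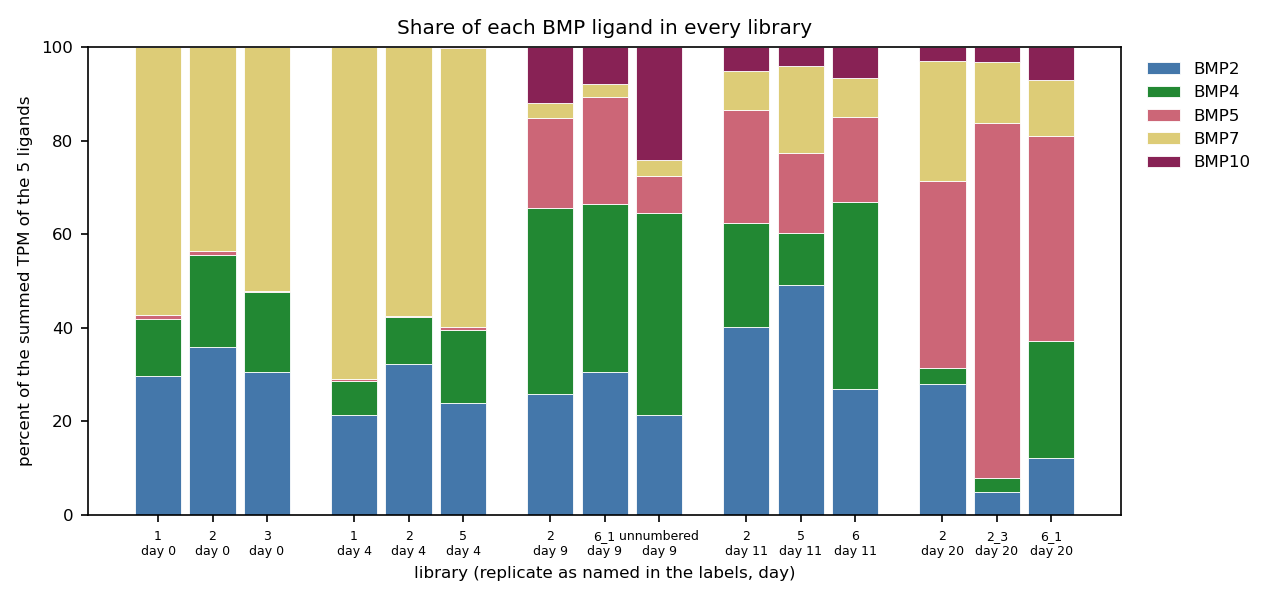
Each bar is 1 library, grouped by day along the horizontal axis, and shows the percent of the summed TPM of the 5 ligands that came from each ligand. BMP7 filled 43.7% to 57.2% of the bars of day 0 and 2.79% to 3.31% of those of day 9, and BMP5 filled 40.1% to 76.0% of those of day 20.

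The promoters of SMAD6 and BAMBI are shown for the motifs they held, and those of ID1 and ID3, which rose in the same step, beside them. The stretches come from RefSeq (GRCh38.p14), which held windows for 8 of the 10 members and none here for BMP2 and BMP7, and each was trimmed to bases outside exons within the 250 bases before the start. Capitals mark GGCGCC, a GC-rich SMAD-binding motif, or GTCTAGAC, the palindromic SMAD box, which was added after the windows were read. Both motifs read the same on either strand, and they do not overlap each other.
SMAD6, chr15:66701986-66702235, plus strand: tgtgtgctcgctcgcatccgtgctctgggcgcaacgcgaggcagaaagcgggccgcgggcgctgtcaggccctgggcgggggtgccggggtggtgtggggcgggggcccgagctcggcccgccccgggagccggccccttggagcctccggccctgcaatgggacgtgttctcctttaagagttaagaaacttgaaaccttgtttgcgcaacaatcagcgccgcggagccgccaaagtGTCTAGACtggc
BAMBI, chr10:28677271-28677509, plus strand: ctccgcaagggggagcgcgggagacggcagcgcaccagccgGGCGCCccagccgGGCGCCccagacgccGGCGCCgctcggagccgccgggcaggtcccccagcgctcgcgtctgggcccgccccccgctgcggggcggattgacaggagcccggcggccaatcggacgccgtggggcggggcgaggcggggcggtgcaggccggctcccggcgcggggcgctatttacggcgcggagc
ID1, chr20:31605039-31605282, plus strand: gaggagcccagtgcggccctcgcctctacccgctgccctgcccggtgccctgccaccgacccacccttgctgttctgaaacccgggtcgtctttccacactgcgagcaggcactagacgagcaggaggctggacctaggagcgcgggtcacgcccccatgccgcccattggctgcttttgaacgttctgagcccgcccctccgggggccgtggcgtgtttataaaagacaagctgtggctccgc
ID3, chr1:23559502-23559751, minus strand: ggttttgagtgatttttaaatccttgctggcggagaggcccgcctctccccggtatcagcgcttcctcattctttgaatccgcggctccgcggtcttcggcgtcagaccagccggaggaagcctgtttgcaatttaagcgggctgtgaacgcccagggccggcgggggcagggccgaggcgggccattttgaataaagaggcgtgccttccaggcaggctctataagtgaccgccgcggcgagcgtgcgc
SMAD6 held 1 match to GTCTAGAC, beginning 12 bases before its start, where 0.182% of 35116 RefSeq windows of that length held one. BAMBI held 3 matches to GGCGCC, beginning 209, 196 and 181 bases before its start, where 16.4% of windows held at least 1. ID1 and ID3 matched neither in these windows, and bases farther from the start were not searched. The only other match among the members was 1 of GGCGCC in BMP4, and ID2 is not shown because exons left 48 bases of its window. A match is a description of letters and no evidence of binding.

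ID1 (ENSG00000125968; chr20:31605283-31606515, plus strand) was already high in undifferentiated cells. Its level was 386, 309 and 425 TPM on day 0 and 424, 431 and 447 TPM on day 4. It was 896, 691 and 814 TPM on day 9 and 881, 787 and 659.7 TPM on day 11. On day 20, plate 2 held 365 TPM, plate 2_3 held 45.1 and plate 6_1 held 178. Day 9 lay above day 4, day 20 lay wholly below day 11, and days 0 and 20 overlapped. The rise from day 4 to day 9 was 1.88-fold (log2 fold change 0.91, SE 0.15, adjusted p = 0.00157, edgeR), the smallest upward change among the members, and it was not called when all 15 libraries shared one spread (adjusted p = 0.258).

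ID2 (ENSG00000115738; chr2:8678845-8684461, plus strand) was 65.3, 22.3 and 75.6 TPM on day 0 and 135, 89.2 and 73.1 TPM on day 4. It was 407, 452 and 375 TPM on day 9, 577, 379.7 and 549 TPM on day 11, and 470.5, 138 and 225 TPM on day 20. Among consecutive days, only days 4 and 9 did not overlap. It rose 4.18-fold in that step (log2 fold change 2.06, SE 0.23, adjusted p = 0.0002, edgeR). ID2 shares exon bases with ID2-AS1 on the opposite strand, whose counts came to at most 9.21% of those of ID2, in day 20 plate 2_3, and without a stated strand setting their reads cannot be told apart.

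ID3 (ENSG00000117318; chr1:23557926-23559501, minus strand) was 91.2, 129 and 87.5 TPM on day 0 and 68.9, 113 and 77.6 TPM on day 4. It was 492, 352 and 665 TPM on day 9, 700.1, 630.3 and 507 TPM on day 11, and 344, 83.3 and 132 TPM on day 20. In TPM day 20 lay wholly below days 9 and 11 and overlapped day 0. In CPM days 9 and 20 overlapped, with 159.7 in day 20 plate 2 and 156.4 in day 9 plate 6_1. The rise from day 4 to day 9 was 5.96-fold (log2 fold change 2.58, SE 0.31, adjusted p = 0.000388, edgeR).

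SMAD6 (ENSG00000137834; chr15:66702236-66782849, plus strand), the inhibitory SMAD whose promoter carried the palindromic box, was 5.19, 2.98 and 3.91 TPM on day 0 and 6.95, 7.45 and 6.63 TPM on day 4. It was 206, 131 and 205 TPM on day 9, 150.4, 186 and 81.0 TPM on day 11, and 49.2, 48.0 and 29.6 TPM on day 20. Days 9 and 11 overlapped, and every other pair of neighbouring days was apart. It rose 26.5-fold from day 4 to day 9 (log2 fold change 4.73, SE 0.25, adjusted p = 5.76e-06, edgeR).

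BAMBI (ENSG00000095739; chr10:28677510-28682932, plus strand), whose promoter carried the 3 GC-rich matches, was 36.7, 35.8 and 27.7 TPM on day 0 and 30.2, 55.6 and 49.4 TPM on day 4. It was 407, 690.1 and 501 TPM on day 9 and 829.9, 1287 and 802 TPM on day 11, when it was the most abundant member in plates 5 and 6. On day 20 it was 266, 225 and 357 TPM. Day 11 lay wholly above day 9, and day 20 wholly below both. Between days 4 and 9 BAMBI rose 11.9-fold (log2 fold change 3.57, SE 0.26, adjusted p = 3.10e-05, edgeR).

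Before differentiation medium was added, from day 0 to day 4, 0 of the 8 members tested were called, and 0% of the 20964 genes tested were, with 741 at an unadjusted p under 0.05. DESeq2 also called 0 genes, while the fit with no filter on low counts called 64. In TMM-normalized CPM, BMP7 and SMAD6 lay wholly higher on day 4, 2 of the 8 members where 10.2% of all genes tested did not overlap. Their log2 fold changes were 0.70 (SE 0.28) for BMP7 and 0.74 (SE 0.22) for SMAD6, each with an adjusted p of 0.885. In TPM the ranges of BMP7 touched, since day 0 replicate 1 held 39.7 and day 4 plate 5 held 39.5.

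From day 4 to day 9, 10 of 10 members were called where 49% of the 21252 genes tested were. The 9 that rose compare with 24.3% of genes called higher, and BMP7 with 24.7% called lower. Median log2 fold changes were 5.11 for the 5 ligands and 2.58 for the 5 targets against 0.01 over all genes tested. The replicates of all 10 members were apart in CPM, as they were for 59.8% of genes. Days 4 and 9 shared 3 sequencing lanes with 1 library each. Within each lane all 10 members moved in the same direction as in the pooled comparison, which the lack of overlap in CPM had already fixed. The smallest within-lane log2 ratio was 0.50 for ID1, and the within-lane range for SMAD6 was 4.18 to 4.85. Pluripotency markers summed to between 1738 and 2114 TPM on day 9 against 5137 to 6318 TPM on day 4. LIN28A held most of the day 9 sums, with a mean of 1654 TPM against 2575 TPM on day 4. The means of POU5F1 (1259 to 90.6 TPM), SOX2 (905 to 14.9), DPPA4 (599 to 77.4), TDGF1 (482 to 46.9) and NANOG (42.2 to 1.61) fell further. The part of these markers in the changes of the members was not tested.

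**Figure D3:**
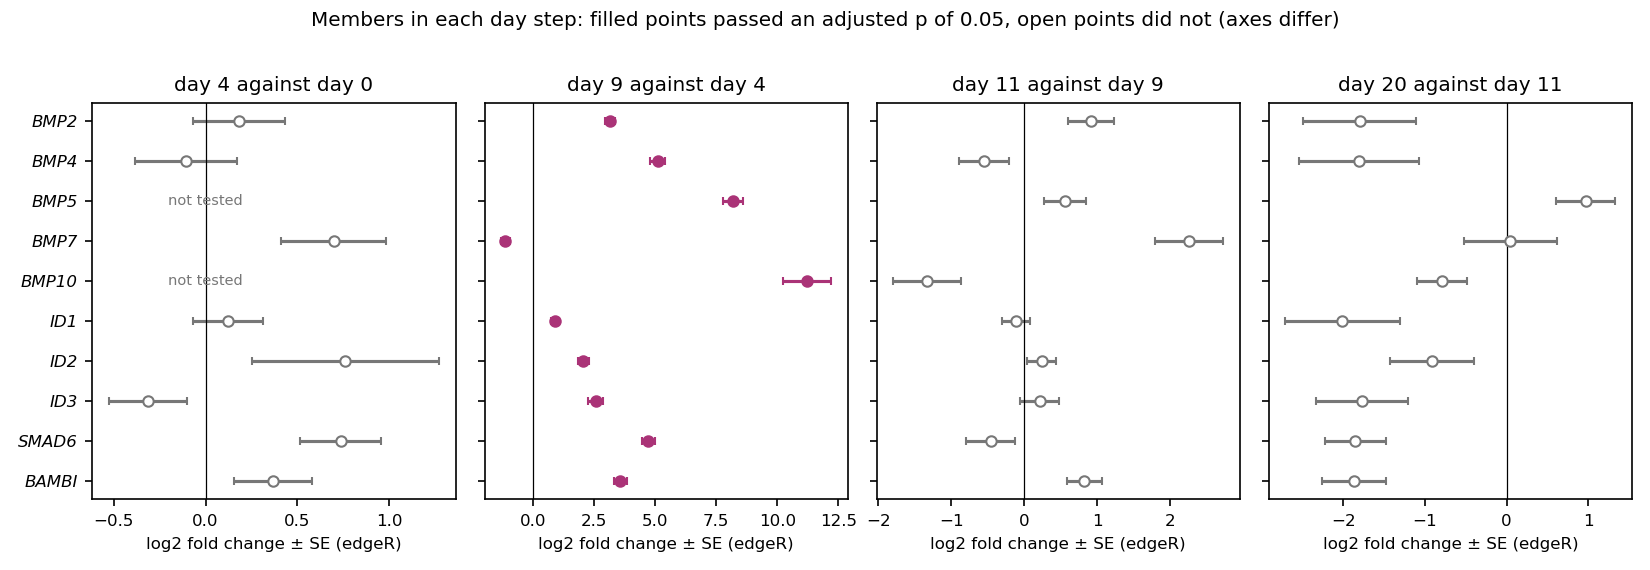
Log2 fold change of each member (points) with its standard error (bars) in the 4 steps between consecutive days, by edgeR on 3 libraries a day, with horizontal axes that differ between panels. Filled points passed an adjusted p of 0.05, which held for all 10 members from day 4 to day 9 and for no member in the other steps. The point for BMP10 in the second panel rests on 1 count on day 4.

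From day 9 to day 11, 0 of 10 members passed the threshold where 2.39% of 20679 genes did. BMP7 came nearest, with a log2 fold change of 2.26 (SE 0.47, adjusted p = 0.0577, edgeR). It was higher in each of the 3 lanes compared, which follows from replicates that did not overlap. Without plate 5 of day 11 the difference for BMP7 was smaller, at 1.53, and passed (adjusted p = 0.0212). BMP2 at 0.92 (SE 0.32, adjusted p = 0.189) and BAMBI at 0.83 (SE 0.24, adjusted p = 0.130) had higher day 11 means, and BMP10 at -1.33 (SE 0.47, adjusted p = 0.203) a lower one. These 4 were the members whose replicates were apart in CPM, 4 of 10 where 23.7% of genes were. The 3 ID genes differed by between -0.11 and 0.24 on the log2 scale. DESeq2 called 3 members here, BMP7 (adjusted p = 1.18e-05), BMP10 (0.0473) and BAMBI (0.0305). It also called more genes over all than edgeR did, and no share was computed for it, so nothing is read from that number.

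Libraries of day 11 differed in makeup along with several ligands. Plate 5 had the highest BMP2, BMP7 and BAMBI of that day together with the highest cardiac markers, 20860 TPM against 6011 in plate 2 and 3849 in plate 6. Plate 6 had the highest BMP4 with the highest mesenchymal markers, 6041 TPM against 2789 in plate 2 and 986 in plate 5. Other marker sums differed too. Plate 5 was also highest for the summed endothelial (180 TPM), trophoblast and amnion (164 TPM) and neural markers (1355 TPM). Plate 6 was highest for endodermal markers (2436 TPM) and plate 2 for epicardial markers (59.4 TPM). The neural sum of plate 5 came almost wholly from NES. Its trophoblast and amnion sum was mostly CGA (147 TPM). GABRP, VTCN1 and TFAP2A were lowest in plate 5, and GCM1 and CGB5 were below 1 TPM. The part of these markers in the ligand levels was not tested.

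From day 11 to day 20, 0 of 10 members were called where 1.55% of 21398 genes were. Log2 fold changes were negative for 8 members and positive for BMP5 and BMP7, although that of BMP7 was only 0.05 and turned negative under DESeq2 and with no filter on low counts. The median was -1.78 against 0.07 over all genes tested. All 5 targets had lower day 20 means. SMAD6 at -1.85 (SE 0.37, adjusted p = 0.0544) and BAMBI at -1.87 (SE 0.39, adjusted p = 0.0607) came nearest to the threshold. ID1 differed by -2.01 (SE 0.70, adjusted p = 0.199) and ID3 by -1.77 (SE 0.57, adjusted p = 0.168). BMP5 was the one ligand wholly higher on day 20, at 0.97 (SE 0.36, adjusted p = 0.228). In CPM 6 of 10 members were apart, BMP5, BMP10, ID1, ID3, SMAD6 and BAMBI, where 22.3% of genes were. Within each of 3 lanes ID1, ID2, ID3, SMAD6, BAMBI, BMP2 and BMP10 were lower and BMP5 was higher on day 20. For the members that were apart this follows from the separation, so the lanes add a direction only for BMP2 and ID2. DESeq2 called ID3 (adjusted p = 0.0497), SMAD6 (0.000245) and BAMBI (0.000911). In this step too it called more genes over all than edgeR did, and nothing is read from the number of members.

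Plate 2_3 of day 20, the library with the low RNA integrity number, had the lowest ID1, ID2 and ID3 and the highest BMP5 of its day. Without it the differences from day 11 were -1.51 for ID1 (adjusted p = 0.0711), -1.80 for SMAD6 (0.0727), -1.62 for BAMBI (0.0533) and 0.61 for BMP5 (0.238), and still 0 of 10 members were called. That library also had the lowest endodermal markers of day 20, 650.3 TPM against 17107 and 20236. Plate 6_1, with the highest BMP4 of day 20, had 21724 TPM of mesenchymal markers against 2492 in plate 2 and 1109 in plate 2_3. It was also the highest of that day for the summed endodermal, endothelial, epicardial, and trophoblast and amnion markers. The endothelial sum of 150 TPM was mostly TEK (141 TPM). PECAM1, CDH5 and TIE1 were lowest in plate 6_1, and ERG lay between the other libraries. Of the trophoblast and amnion markers, GABRP and VTCN1 were highest there and CGA lowest, while TFAP2A, GCM1 and CGB5 lay between. Without plate 6_1 the log2 fold change of BMP4 was -3.21 (adjusted p = 0.0360) in place of -1.81 (SE 0.73, adjusted p = 0.265). The part of these markers in the levels was not tested.

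Ordering the 5 days by mean TPM, 17 of the 40 pairs of neighbouring days did not overlap over the 10 members. Sorting by the mean favours such gaps and no share over all genes was computed, so nothing is read from that number. BAMBI, BMP10 and SMAD6 had 3 such gaps each. For BAMBI days 11, 9, 20 and 4 stood in that order without overlap, and for BMP10 days 9, 11, 20 and 4 did. For BMP2, BMP4 and ID2 the neighbours among days 9, 11 and 20 overlapped, as did days 0 and 4, and only the gap between those sets was free of overlap. That gap was lost in CPM for BMP2 and ID2. In TPM it was narrow for ID2, at 138 in day 20 plate 2_3 against 135 in day 4 plate 1.

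Of 11 type I and II receptors and co-receptors tested between days 4 and 9, 3 were called, where 49% of all genes tested were, and with a list this short nothing is read from that difference. BMPR2, a type II receptor, was higher (14.4 to 23.5 TPM in the mean, log2 fold change 0.73, adjusted p = 0.00117, edgeR). The co-receptors RGMA (24.6 to 6.47 TPM, -1.89, adjusted p = 0.000804) and HJV (-2.51, below 2 TPM) were lower. The type I receptors BMPR1A and ACVR1 stood at 64.6 and 19.5 TPM on day 9, with log2 fold changes of -0.26 (SE 0.19) and -0.18 (SE 0.18) that did not pass. Neither did the type II receptors ACVR2A (-0.41, SE 0.29, 29.3 TPM on day 9) and ACVR2B (0.46, SE 0.17, adjusted p = 0.0567, 187 TPM on day 9). The co-receptor ENG had its highest mean, 24.8 TPM, on day 20, and passed in no step. RGMA was lower again from day 9 to day 11 (log2 fold change -1.73, adjusted p = 0.0281).

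Among 7 SMADs and their ligases, 4 rose from day 4 to day 9, where 24.3% of all genes tested were called higher. With a list this short nothing is read from that difference. SMAD9, a receptor-activated SMAD, rose most, from 2.43 to 53.1 TPM (log2 fold change 4.49, SE 0.30, adjusted p = 2.57e-05, edgeR). SMAD1 (1.08) and SMAD5 (0.75), which do the same work, rose less. SMAD7, an inhibitory SMAD that also answers TGF-beta, rose by 2.65 on the log2 scale. SMAD4, the shared partner, differed by 0.28 (SE 0.13, adjusted p = 0.102). The ligases SMURF1 (0.21, SE 0.11) and SMURF2 (0.26, SE 0.10), which mark SMADs and receptors for breakdown, did not pass. Exons of SMAD1 and SMAD5 overlap antisense genes.

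Of 9 other BMP and GDF ligands, 5 could be tested in that step and 4 rose, where 24.3% of all genes tested were called higher. BMP6, a ligand of the BMP5 and BMP7 subgroup, went from 7.48 to 23.1 TPM (log2 fold change 1.64, adjusted p = 0.000135, edgeR). GDF6 (4.53), GDF7 (2.95) and GDF5 (1.88) rose too, to day 9 means under 6 TPM.

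Among 12 extracellular antagonists tested of 15 listed, 4 rose and 3 fell, where 24.3% of all genes tested were called higher and 24.7% lower. BMPER, a secreted protein that binds BMPs, was at 1.11, 1.40 and 1.68 TPM on day 4 and at 191, 172 and 431 TPM on day 9 (log2 fold change 7.61, SE 0.49, adjusted p = 2.40e-05, edgeR). It was the highest of the listed antagonists that changed. NOG (3.37) and CHRD (2.75), which hold BMPs away from their receptors, rose from 1.23 to 12.5 and from 2.20 to 14.4 TPM. GREM1 (2.97), another secreted BMP antagonist, rose from 0.208 to 1.56 TPM. CHRDL1 (-3.76), FST (-1.61) and NBL1 (-1.31) fell. FST, which binds activins and some BMPs, then rose from day 9 to day 11 (26.2 to 133 TPM, log2 fold change 2.31, adjusted p = 0.0147). FSTL1 (555 TPM on day 9), TWSG1 (63.8 TPM) and FSTL3 (13.9 TPM) passed in no step. SOST, an antagonist best known from bone, had a day 11 mean of 51.4 TPM that rested on plate 5 (135 TPM against 14.6 and 4.72), and it also passed in no step (adjusted p = 0.141 against day 9). BMPER fell from day 11 to day 20, from 173 to 29.8 TPM (-2.67, SE 0.30, adjusted p = 0.0173).

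**Figure D4:**
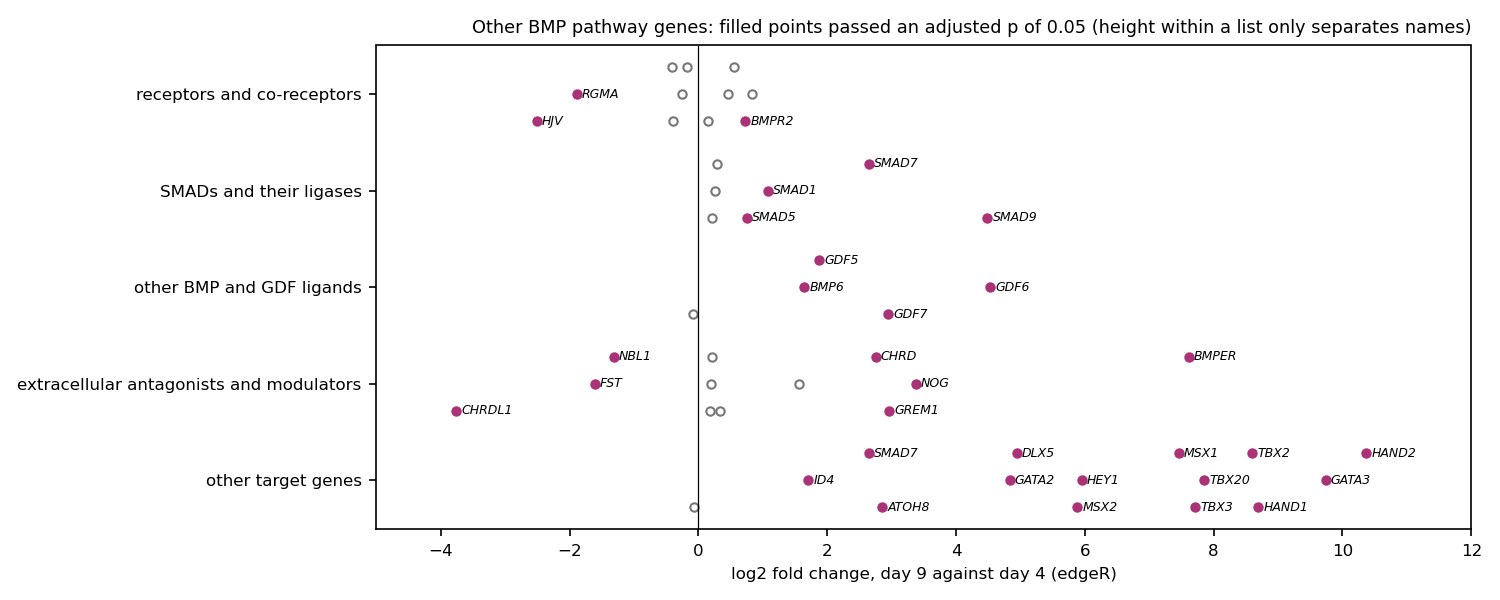
Log2 fold change of day 9 against day 4 (horizontal axis) for the other pathway genes tested, in 5 lists, with filled and named points for adjusted p under 0.05 by edgeR. SMAD7 appears in 2 lists. The list of other targets had 14 of 15 points filled, all to the right of 0, and the receptors 3 of 11.

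Of 15 other genes known as BMP targets in at least one tissue, 14 rose from day 4 to day 9, where 24.3% of all genes tested were called higher, with VENTX the exception (log2 fold change -0.07). The list had a median of 5.95. Its members include transcription factors of the early heart and mesoderm, which other signals also control, and a response to BMP and a change of cell type cannot be told apart in this count. HAND1 (8.69) went from 0.917 to 381 TPM, HAND2 (10.37) to 147 TPM and TBX20 (7.85) to 177 TPM. MSX1 (7.46), MSX2 (5.88), TBX2 (8.60), TBX3 (7.72), GATA2 (4.83), GATA3 (9.74) and HEY1 (5.95) each began below 2 TPM in the mean. DLX5 (4.94) and ATOH8 (2.85) rose to day 9 means under 3 TPM. ID4, the fourth ID gene, rose from 89.7 to 287 TPM (log2 fold change 1.71, adjusted p = 0.00308, edgeR). MSX2 (-1.50, adjusted p = 0.0383) and GATA3 (-1.51, adjusted p = 0.0359) fell from day 9 to day 11. ID4 (-2.25, adjusted p = 0.0292), TBX2 (-1.34, 0.0422) and GATA2 (-2.08, 0.0352) fell from day 11 to day 20. TBX20 stayed high in day 20 plates 2 and 2_3, at 619 and 542 TPM. HAND2, TBX2, TBX3 and GATA2 share exon bases with genes on the opposite strand. Other pathway genes named here, such as BMP6, CHRD, GREM1, NBL1, SMURF1 and SMURF2, also share exon bases with other genes.

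**Figure D5:**
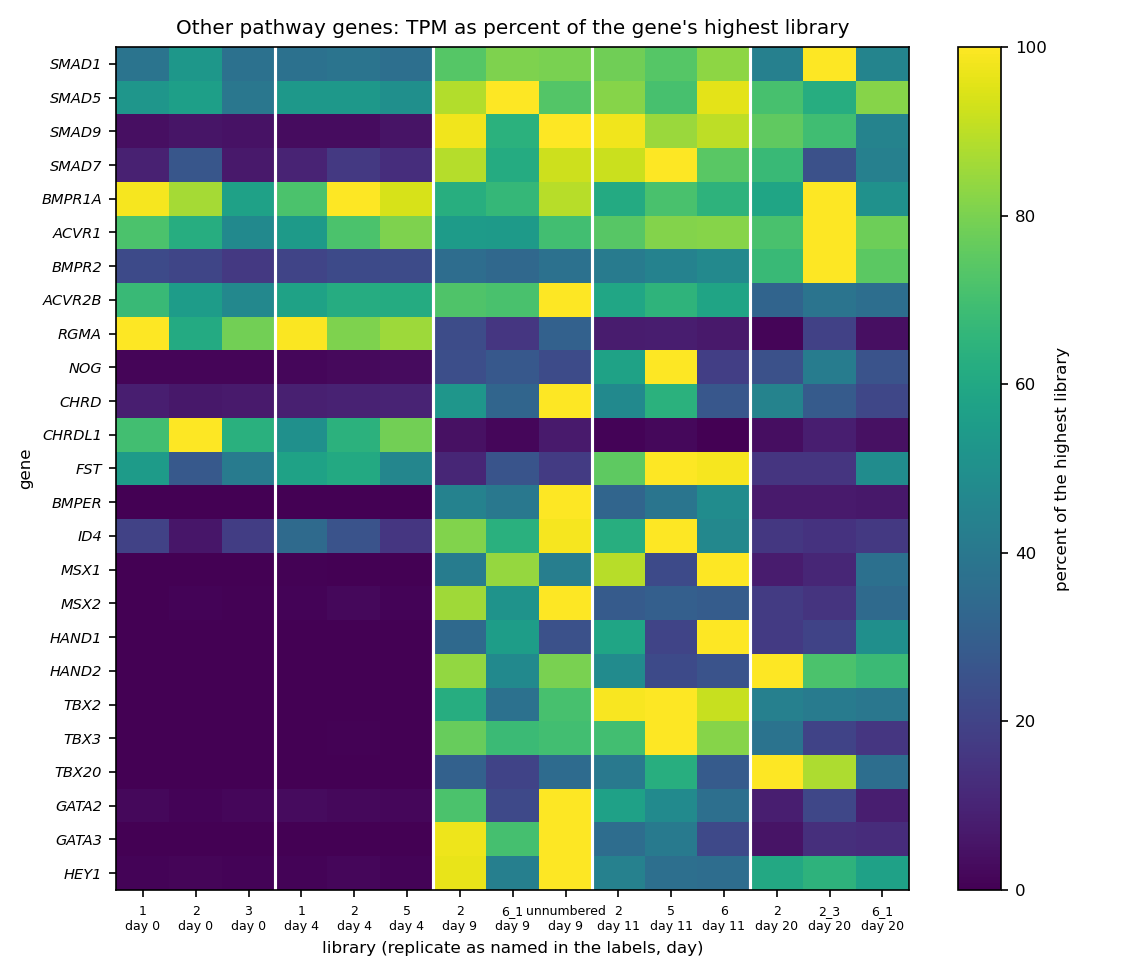
TPM of 25 other pathway genes (rows) in the 15 libraries (columns, ordered by day), each as the percent of that gene's highest library, from 0 (dark) to 100 (bright). RGMA and CHRDL1 were brightest on days 0 and 4, BMPER, MSX2 and GATA3 on day 9, and TBX20 and HAND2 in plate 2 of day 20.

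Across the 15 libraries, which share lanes and differ in depth, the members' log2 CPM were compared by Pearson's r as a description. SMAD6 tracked BMP10 (0.95), BAMBI (0.95) and BMP2 (0.93). The highest r of BMP7 with another member was 0.36, with BMP5, and BMP5 and ID1 stood at -0.11. Outside the list, the gene most like SMAD6 was BMPER (0.98), followed by CNTFR and ISL1. The gene most like BMP10 was GATA6 (0.99), like BMP5 DPF3 (0.99), like BAMBI DOK6 (0.99), like BMP4 LRRC32 (0.98), like ID2 ZNF516 (0.98) and like BMP2 AGO4 (0.97). The nearest genes to ID3 (BCL7A, 0.96), ID1 (IGF2BP2, 0.95) and BMP7 (GYS1, 0.93) were less close.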

How the data were processed

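The authors built stranded total RNA libraries (TruSeq with rRNA removal, paired reads), aligned reads to GRCh38 with STAR 2.5.2b, counted them with featureCounts 1.5.1 and removed rRNA and mitochondrial genes. The deposited tables hold raw counts per gene and TPM, which the authors computed from the counts. The deposited sample sheet also gave an RNA integrity score and the fraction of uniquely aligned reads (35% to 86%), which the authors measured per library. Strand and multimapping settings are not given in the sources used here. The days came from the labels, and nothing tied numbered libraries of different days to one culture.

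Members were matched to GENCODE v44 symbols, which also gave coordinates, and 46872 of 48777 identifiers were found. Counts were tested with edgeR 4.0.16 (R 4.3.3): quasi-likelihood fits of the 6 libraries of each pair of consecutive days and of all 15 for any difference, with TMM, filterByExpr (minimum count 10, total 15) and Benjamini-Hochberg adjustment over all genes tested, two-sided, called under 0.05. The standard error is the log2 fold change divided by the root of F. The 6-library fits measure the spread between samples that the labels call biological replicates. Levels are deposited TPM, since comparing genes needs a length correction. Overlap was judged on TMM-normalized CPM unless TPM is named. With 3 against 3, an exact permutation test cannot go below 0.1, so none is printed. Likeness is Pearson's r of log2 CPM (prior count 2), over 15 libraries. Intervals and floors cover counting error only, since reads carried no molecular identifiers.

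Alternatives were DESeq2 1.42.0, other scalings, no filter, limma 3.58.1 on log2 TPM plus 1 or 0.1, lane and library-number blocks, one fit of all 15 libraries and leaving out each library. Scripts were tested on simulated counts. The members and lists were chosen with earlier results of these data known. All members were named, and other pathway genes where they passed the threshold in a step or reached a mean of 10 TPM on some day. The rest were only counted. The antagonist list was used without 1 of its original genes, which is not reported here.

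Whether same-numbered libraries deviate together was checked by correlating their deviations from the day means, which gave between -0.14 and 0.35 over 7 pairs. Differently numbered libraries were not correlated, so the check cannot decide whether the numbers pair the samples. They were not taken to do so. Single-cell, qPCR, immunoblot and pig data were not analysed here.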

Additional observations from a re-analysis of the deposited data

How the results depend on the processing

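Of the members' values in the 4 steps, under alternatives that kept every library, 297 kept their direction and side of the threshold, 23 passed where the reported value did not, 2 no longer passed and 2 reversed. Those 2 losses were BMP7 and ID1 from day 4 to day 9 in the fit of all 15 libraries, and the 2 reversals were BMP7 from day 11 to day 20, at -0.024 under DESeq2 and -0.049 with no filter on low counts. The cause was not tested.

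Counts of calls, over all genes and over the members, depended on the setting. From day 0 to day 4 it was 0, 64 with no filter (1 member) and 409 with the number in the library names as a replicate block (3 members). From day 4 to day 9 it was 10406, and 6209 in the fit of all 15 libraries. From day 9 to day 11 it was 495, 1595 under DESeq2 (3 members), 1016 with no filter (1 member), 1971 with the replicate block (2 members) and 0 to 573 on leaving out 1 library, with 1 member called in the lane block and in the fit of all 15 libraries, and 0 to 1 on leaving out 1 library. From day 11 to day 20 it was 332, 2045 under DESeq2 (3 members), 137 with the lane block, 3132 in the fit of all 15 (5 members), 3 with the replicate block, and 0 to 510 on leaving out 1 library (0 to 1 members), with 1 member called by library size alone and by limma with either pseudocount. The test over 5 days called 12480 genes, and 8207 with the lane block. No lane block could be fitted for days 0 and 4 and no replicate block for days 4 and 9, which share 1 plate number. The day 0 labels do not call their number a plate. Whether the numbers pair the samples is not known, so the block is given here as counts of calls only.

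On leaving out 1 library, values near 0 turned: from day 0 to day 4, ID1 ranged from -0.035 to 0.37, BMP4 from -0.34 to 0.12 and BMP2 from -0.12 to 0.32; from day 9 to day 11, ID1 ranged from -0.26 to 0.022 and ID3 from -0.027 to 0.46; from day 11 to day 20, BMP7 ranged from -0.63 to 0.75. Scaling by library size alone moved the median of all genes to 0.13 from day 11 to day 20. Neighbouring days without overlap numbered 17 in TPM, 17 without the short gene and 16 in CPM, alternatives chosen after seeing the data. With 3 libraries a day, differences such as those of SMAD6 and BAMBI after day 11 lay at the edge of what passed.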
